A study of Mus musculus with 14 samples.

Results

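Mitochondrial ribosomal protein genes are nuclear genes whose products are imported into the organelle. The deposited joint table was searched for symbols that start with Mrpl or Mrps followed by a digit, and 76 of its 21905 genes with a symbol met that rule. Of these, 47 are Mrpl genes, named for the large ribosomal subunit, and 29 are Mrps genes, named for the small subunit. By textbook knowledge 45 encode proteins with a counterpart in the bacterial ribosome and 28 encode proteins found only in mitochondrial ribosomes. The other 3 names do not match the subunit: Mrps18a and Mrps30 encode large subunit proteins, and the product of Mrps36 belongs to the 2-oxoglutarate dehydrogenase complex rather than to the ribosome.

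The RNA-seq libraries follow the isolation of chromatoid bodies, granules of RNA and protein beside the nucleus of round spermatids that contain the helicase MVH (the product of Ddx4) and the piRNA machinery. All 14 libraries came from testes of C57BL/6 mice aged 6 weeks or more. Cells from dissociated tubules were fixed with formaldehyde and sonicated (lysate, 1 library), and centrifugation gave a supernatant (1 library) and a first pellet (pellet1, 1 library). Pellet1 was sonicated again and filtered to give pellet2 (1 library), which went into immunoprecipitation (IP) with an MVH antibody (3 libraries). Sorted round spermatids (2 libraries, of which 1 from RNA above 500 bp) and sorted round spermatids labelled hetMIWI, read here as heterozygous for MIWI, the piRNA-binding product of Piwil1 (1 library), were measured apart. The 3 ACR IP libraries and the IgG IP library, which are the control precipitations, were not analysed here, so MVH IP values hold whatever came down with the beads as well. Every condition has 1 deposited value per gene, with the 3 MVH IP libraries and the 2 round spermatid libraries each merged, so no difference between conditions could be tested across replicates.

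The mitochondrial ribosome translates the handful of messages encoded by mitochondrial DNA, all of which are subunits of the respiratory chain and ATP synthase. Its RNAs come from the mitochondrial genome, whereas its proteins are translated on cytosolic ribosomes and imported. Germ cell mitochondria change shape and position during spermatogenesis, and in spermatocytes they cluster around the intermitochondrial cement, a granule related to the chromatoid body.

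The 3 members with the largest increase from lysate to MVH IP were Mrps12, Mrps7 and Mrpl22, and their promoters are printed to show what precedes the genes that the results turn on. Each runs 5′ to 3′ over 280 bases, from 250 bases before the RefSeq start to the first 30 transcribed bases (RefSeq, GRCm38.p6). Capitals mark matches, on either strand, to 4 motifs that were searched: CCGGAAG (ETS factors), AAGATGGC (YY1), CCAAT and the palindromic consensus of NRF1. No marked matches overlap in these windows.
Mrps12, chr7:28741792-28742071, minus strand: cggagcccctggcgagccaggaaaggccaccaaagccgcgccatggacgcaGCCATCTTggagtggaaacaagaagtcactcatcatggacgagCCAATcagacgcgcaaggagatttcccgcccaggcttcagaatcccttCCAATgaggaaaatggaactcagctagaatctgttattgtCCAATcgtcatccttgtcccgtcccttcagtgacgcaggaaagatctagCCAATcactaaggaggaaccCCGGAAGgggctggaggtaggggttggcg
Mrps7, chr11:115603890-115604169, plus strand: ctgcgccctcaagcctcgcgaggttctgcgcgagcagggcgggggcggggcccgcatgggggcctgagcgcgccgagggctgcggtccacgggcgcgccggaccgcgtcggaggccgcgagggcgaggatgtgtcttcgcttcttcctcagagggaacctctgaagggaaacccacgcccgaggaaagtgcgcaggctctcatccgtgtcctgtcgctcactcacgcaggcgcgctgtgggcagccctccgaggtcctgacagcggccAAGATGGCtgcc
Mrpl22, chr11:58171414-58171693, plus strand: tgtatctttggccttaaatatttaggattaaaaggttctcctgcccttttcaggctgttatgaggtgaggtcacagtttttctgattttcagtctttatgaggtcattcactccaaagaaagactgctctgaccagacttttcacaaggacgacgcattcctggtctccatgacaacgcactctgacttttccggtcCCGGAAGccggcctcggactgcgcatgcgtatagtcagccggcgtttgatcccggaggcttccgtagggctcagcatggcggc
The Mrps12 window held an ETS match, a YY1 match and several CCAAT matches, the Mrps7 window 1 YY1 match and the Mrpl22 window 1 ETS match. RefSeq promoters were found for 67 of the 76 members. Over windows of 300 bases, CCGGAAG occurred in 34.3% of member promoters and in 9.12% of all promoters (12.3% of those of protein-coding genes). AAGATGGC occurred in 17.9% of member promoters and 2.88% of all (3.28% of those of protein-coding genes). The NRF1 consensus occurred in 17.9% and 4.78% (6.84% of those of protein-coding genes). CCAAT, at 40.3% and 37.9%, was about as frequent in members as elsewhere. These are letter matches, described without a test.

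Values are FPKM, fragments per kilobase of transcript and per unit of sequencing depth, so levels are per length and can be set side by side between genes. The median member was at 10.3 FPKM in lysate and 8.72 in supernatant, at 9.09 in pellet1 and 9.49 in pellet2, and at 18.8 in MVH IP. Among all genes at 1 FPKM or more, the medians were 8.09, 8.11, 9.61, 9.27 and 15.4. No member was at 0 in lysate or supernatant, while pellet1 had 4 such members, pellet2 had 3 and MVH IP had 5. Of 74 members with a mean of at least 1 FPKM over the joint table, 45 had their highest value in MVH IP (60.8%, against 67.2% of all genes).

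Mrpl39, which encodes a large subunit protein found only in mitochondria, stood far above the others in lysate. It was at 164 FPKM in lysate and 171 in supernatant, at 83.7 in pellet1 and 97.6 in pellet2, and at 149 in MVH IP, so both pellets were low. Mrpl54, another such protein, followed in lysate at 82.9 FPKM, then Mrpl24 at 68.9, Mrps36 at 59.3 and Mrpl53 at 56.8. The lowest members in lysate were Mrps24 at 0.756 FPKM, Mrpl36 at 1.30, Mrpl34 at 1.37, Mrpl17 at 1.42 and Mrpl19 at 1.48.

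Sequencing depth was not stated by the submitters, but the joint table keeps traces of whole fragments. In the 4 single-library conditions, ratios of low values fell on a common step, set by what 1 fragment is worth: 0.692 in supernatant, 1.42 in pellet1 and 1.39 in pellet2 relative to lysate. The smallest whole fragment numbers that gave all values of a gene, each within 0.001 of a fragment, were sought. They were found for 33 of the 76 members and for 19.4% of those genes whose mean reached 1 FPKM. The true numbers may be a common multiple of these, so the counts are minimums and intervals drawn from them may be too wide. This recovery and its tolerance were chosen after seeing the data, and the MVH IP column showed no such step. The 33 members had a median of 25 fragments in lysate and 35 in supernatant, but 18 in pellet1 and 17 in pellet2, and 10 of them had under 10 fragments in pellet1. Counting intervals given for these genes are exact 95% intervals (Clopper-Pearson, on the share of fragments). They cover counting error only, since the reads carry no molecular identifiers, and they compare 2 libraries rather than 2 conditions.

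Setting MVH IP against lysate compares the end of the purification with its start. Of 74 members with a mean of at least 1 FPKM, 25 were higher by 2-fold or more and 5 lower, where the share of all genes was 47.3% higher and 7.53% lower. The median log2 ratio of (FPKM + 1), the scale on which 2-fold was counted in every comparison, was 0.57 in members and 0.92 in all genes. Relative to the median of all genes (centred), 6 members were higher and 17 lower, beside 18.7% and 20.6% of all genes.

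Mrps12, at chr7:29524660-29526800 (mm9, minus strand), encodes the small subunit protein at the decoding centre. It was at 7.57 FPKM in lysate and 5.24 in supernatant, at 40.3 in pellet1 and 28.0 in pellet2, and at 135 in MVH IP. Lysate and supernatant were low, the pellets intermediate and MVH IP highest, 15.8-fold above lysate on the (FPKM + 1) scale. In the authors' deposited table, Mrps12 was the only member of 69 tested with a Cuffdiff q under 0.05 for MVH IP against lysate (q = 0.0403), where 7.05% of genes were called higher and 0.115% lower. The deposited q-values rest on Cuffdiff's model of the spread, which for the single-library conditions is not measured.

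Mrps7 (chr11:115465465-115468938, mm9), whose product lies in the head of the small subunit, was at 5.88 FPKM in lysate and 5.82 in supernatant, at 28.1 in pellet1 and 11.4 in pellet2, and at 39.0 in MVH IP. It too was higher in both pellets than in lysate and highest in MVH IP. Mrpl22 (chr11:57985156-57993082, mm9), which encodes a protein of the large subunit's exit tunnel, was at 24.7 FPKM in lysate and 12.4 in supernatant, at 48.6 in pellet1 and 45.5 in pellet2, and at 130.1 in MVH IP. In the authors' deposited table Mrpl22 had q = 0.157 for MVH IP against lysate and q = 0.0310 for MVH IP against supernatant.

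Mrps23, Mrps34 and Mrpl36 completed the 6 largest increases but were not high in both pellets. Mrps23, a small subunit protein gene without a bacterial counterpart, was at 4.98 FPKM in lysate, at 5.11 in pellet1 and 5.37 in pellet2, and at 26.8 in MVH IP. Mrps34, of the same class, was at 11.8, 9.93, 9.70 and 53.0. In supernatant Mrps23 was at 2.30 FPKM and Mrps34 at 13.0, so MVH IP was the highest of the 5 conditions for both. The separate MVH IP table lists Mrps34 at 13.1 FPKM and Mrps23 at 11.4. Mrpl36 was at 1.30, 3.70, 0.603 and 8.81 FPKM, again for lysate, both pellets and the IP, on 3 fragments in lysate, 6 in pellet1 and 1 in pellet2.

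**Figure D1:**
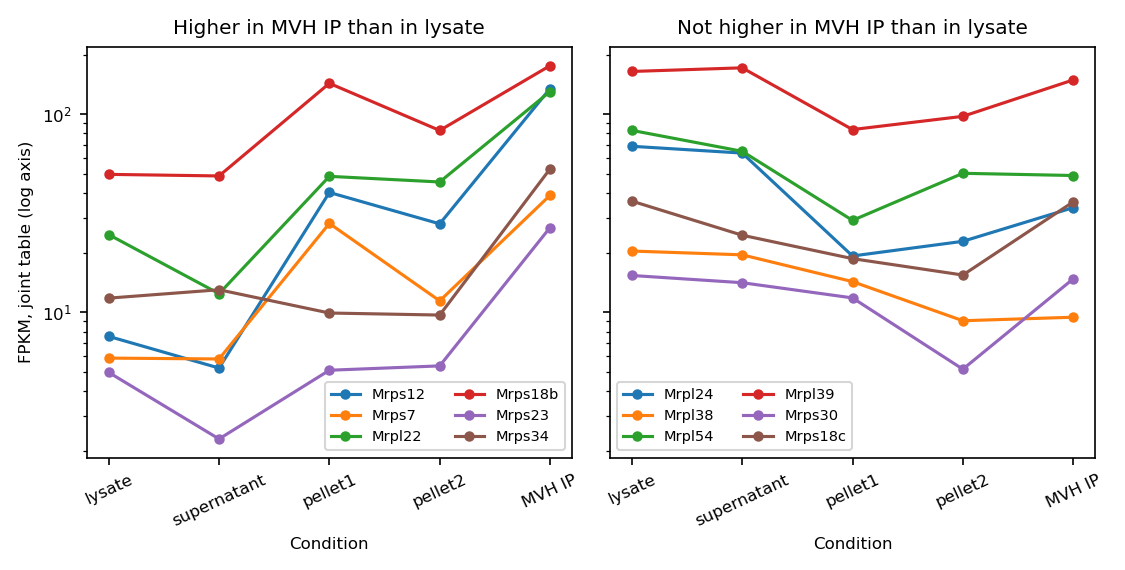
FPKM of 12 members (vertical log axis) in the 5 conditions of the joint table, 1 merged or single-library value per point with no error. At left are members higher in MVH IP than in lysate, among which Mrps12 climbs from 7.57 to 135; at right are members that were not, such as Mrpl24, at 68.9 in lysate and 33.8 in MVH IP.

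The 5 members lower in MVH IP are 6.76% of those tested, near the 7.53% of all genes. Mrpl38, a large subunit gene without a bacterial counterpart, was at 20.4 FPKM in lysate and 9.45 in MVH IP, and Mrpl24, which has a counterpart, at 68.9 and 33.8. Mrpl3 fell just short of the 2-fold line, at 9.80 and 4.47 FPKM. Mrps21, Mrpl14 and Mrpl23, the other 3 counted lower, were listed at 0 in MVH IP and at 5.91, 3.87 and 3.20 FPKM in lysate. A value of exactly 0 can be a failed estimate, and the separate MVH IP table does list Mrps21, at 12.0 FPKM. Mrpl34 and Mrps24 were also at 0 in MVH IP but were too low in lysate to pass the filter.

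The Mrpl and Mrps genes, split by name, and the 2 evolutionary classes are given side by side. The Mrps genes here include Mrps18a, Mrps30 and Mrps36, which do not belong to the small subunit, and Mrps36 is among those higher. In MVH IP against lysate 16 of 46 Mrpl genes were higher and 4 lower, and 9 of 28 Mrps genes higher and 1 lower, with medians of 0.52 and 0.62, beside 47.3% and 7.53% of all genes. After centring 2 Mrpl genes were higher and 13 lower, and 4 Mrps genes higher and 4 lower, beside 18.7% and 20.6%. Members with a bacterial counterpart had 14 of 43 higher, 4 lower and a median of 0.58, and members found only in mitochondria had 10 of 28 higher, 1 lower and 0.52. Centred, the first class had 4 higher and 8 lower and the second 2 and 9. No test of these differences was possible.

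**Figure D2:**
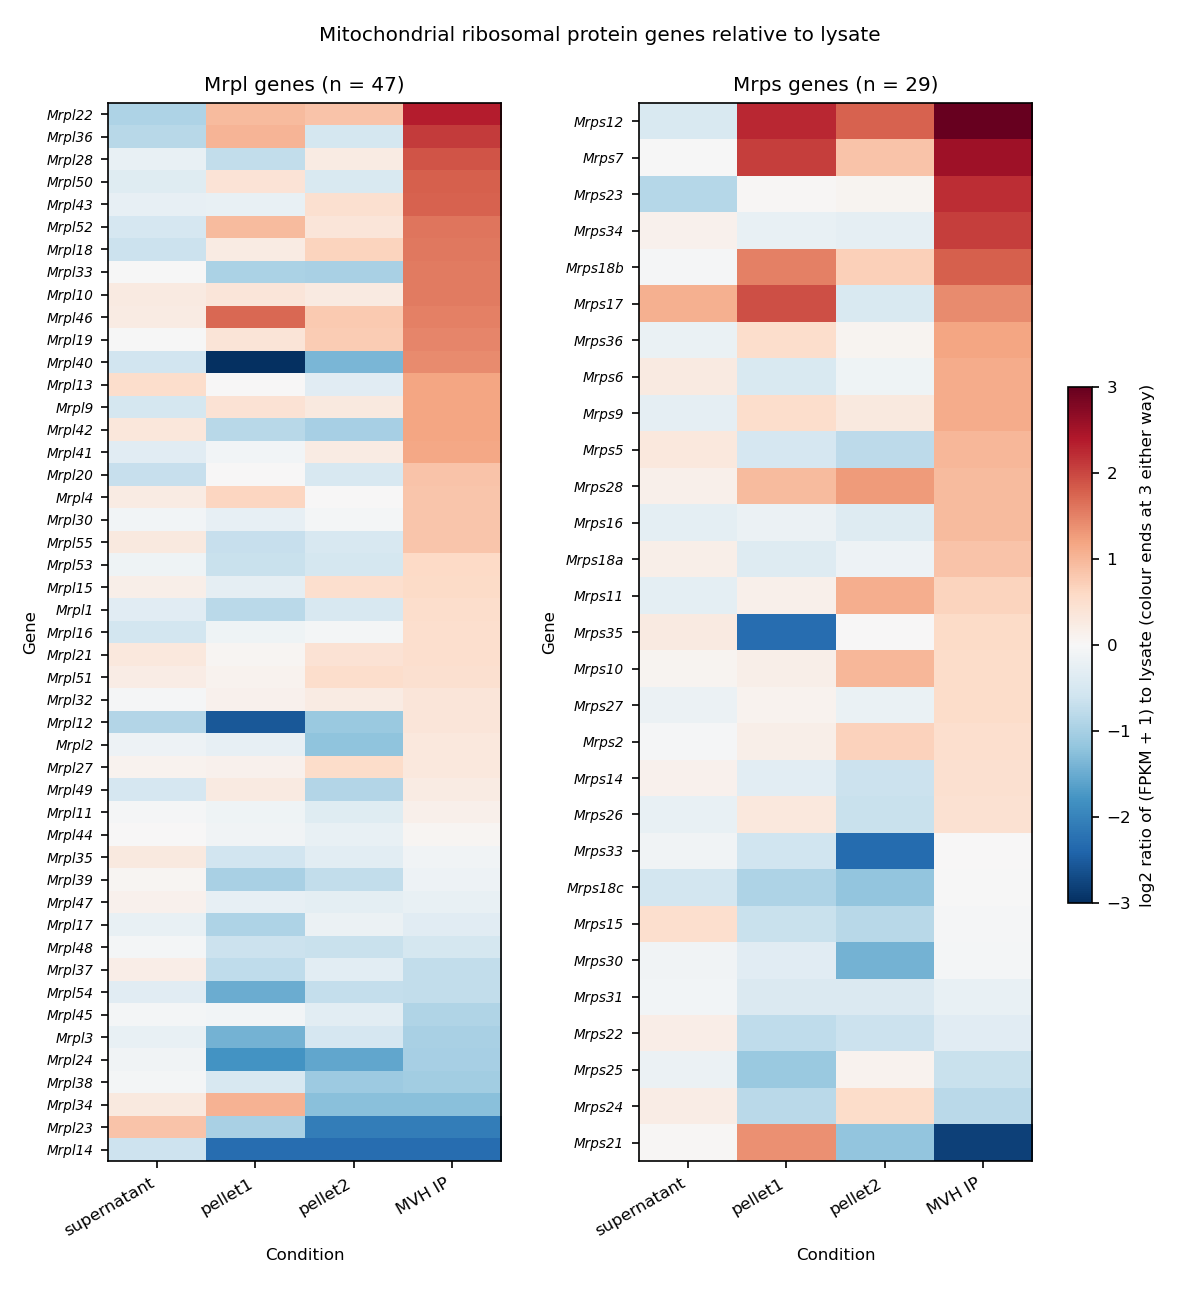
Each row is a member and each column a condition of the joint table, coloured by the log2 ratio of (FPKM + 1) to lysate, with Mrpl genes at left and Mrps genes at right, ordered by MVH IP. Most rows are red in MVH IP and pale in supernatant, while the pellet columns are mixed. Mrps12 is the deepest red, with a log2 ratio of 3.98. Cells of members listed at 0 are blue, darker the higher the member was in lysate.

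Markers of somatic cells also differed along the purification. Of 10 Sertoli cell markers 9 were in the joint table, and their summed level was 52.7 FPKM in lysate, from 18.9 to 24.3 in the pellets and 279 in MVH IP, with Amh and Fshr at 0 in MVH IP. The 6 Leydig cell markers summed to 284 FPKM in lysate and 213 in MVH IP, 6 spermatogonial markers to 15.1 and 63.8 (Gfra1 at 0 in MVH IP), and 8 spermatid markers to 43076 and 36606. Their part in the members' values was not tested. The conditions are successive fractions of lysed cells, so these sums do not measure the number of cells of a type.

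Supernatant and lysate were nearly alike for the members. Only Mrps17, a small subunit gene, was higher by 2-fold or more of 74 members, and none was lower, where 0.751% of all genes were higher and 1.46% lower. Mrps17 was at 1.53 FPKM in lysate and 4.31 in supernatant. The lowest ratios were those of Mrpl22 at 24.7 and 12.4 FPKM, Mrpl12 at 24.8 and 13.0, and Mrps23 at 4.98 and 2.30. Among the 32 members with recovered counts and a mean of 1 FPKM or more (Mrps24 was below it), the counting interval of the ratio lay above 1 for Mrpl13 only and below 1 for Mrpl20 only, beside 3.69% and 6.16% of genes. Mrpl13, a large subunit gene, had 51 fragments in lysate and 108 in supernatant, a ratio of FPKM of 1.47 (1.04 to 2.09).

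In pellet1, 8 members were higher and 8 lower than in lysate by 2-fold or more of 74, beside 16.8% and 9.41% of all genes. The median log2 ratio was -0.16 in members and 0.07 in all genes. After centring 6 members were higher and 12 lower, beside 15.2% and 11.2% of genes. Apart from Mrps12 and Mrps7, the larger increases were those of Mrps17 at 1.53 and 8.69 FPKM, Mrpl46 at 10.3 and 36.2, Mrps18b at 49.7 and 143, and Mrps21 at 5.91 and 16.8. Mrps12 had 12 fragments in lysate and 45 in pellet1, a ratio of 5.32 (2.77 to 11.1), whereas Mrps21 had 4 and 8, a ratio of 2.84 (0.761 to 12.9), whose interval includes 1.

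The largest decrease in pellet1 was that of Mrpl40, a large subunit gene found only in mitochondria, listed at 0 against 9.28 FPKM in lysate. Mrpl12, whose product forms the flexible stalk that binds translation factors, was at 24.8 FPKM in lysate and 3.47 in pellet1. Mrpl24 was at 68.9 and 19.3 FPKM, and Mrpl54 at 82.9 and 29.1. Mrpl54 had 105 and 26 fragments, a ratio of 0.351 (0.220 to 0.544). Mrps35 had 11 fragments in lysate and 0 in pellet1, and the counting interval of its ratio ran from 0 to 0.566. Mrpl14 had 5 and 0 fragments, and its interval, from 0 to 1.55, includes 1.

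Pellet2 held fewer members above lysate. Of 74 members 3 were higher and 11 lower, beside 12.5% and 7.21% of all genes, and the median log2 ratio was -0.27 in members and 0.08 in all genes; after centring 3 were higher and 13 lower, beside 10.8% and 8.51%. The 3 were all Mrps genes: Mrps12 at 7.57 and 28.0 FPKM, Mrps28 at 33.9 and 84.3, and Mrps11 at 7.24 and 16.6. Recovered fragments in lysate and pellet2 were 12 and 32 for Mrps12, 58 and 104 for Mrps28 and 20 and 33 for Mrps11. Their ratios were 3.70 (1.85 to 7.88), 2.49 (1.79 to 3.49) and 2.29 (1.27 to 4.21), with intervals above 1 in each case.

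The largest decrease in pellet2 was that of Mrps33, a small subunit gene, at 6.81 FPKM in lysate and 0.576 in pellet2. Mrps30, at 15.4 and 5.17 FPKM, had 70 and 17 fragments, a ratio of 0.337 (0.186 to 0.578). Mrpl24 was at 68.9 and 22.8 FPKM and Mrpl40 at 9.28 and 2.97. Mrpl14 and Mrpl23 were listed at 0 in pellet2, on 5 and 4 fragments in lysate.

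Over the 32 members with counts, intervals lay above 1 for 2 members in pellet1 (Mrps12 and Mrps28) and below 1 for 4 (Mrpl37, Mrpl54, Mrps18c and Mrps35), beside 27.0% and 16.3% of genes. In pellet2 they lay above 1 for 3 members and below 1 for 4 (Mrpl38, Mrpl54, Mrps18c and Mrps30), beside 24.0% and 15.3%. Mrps12 and Mrps28 lay above 1, and Mrpl54 and Mrps18c below it, in both pellets, which share the lysate library they are set against. For most members with counts, a difference between a pellet and lysate was not detectable on these minimum counts.

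**Figure D3:**
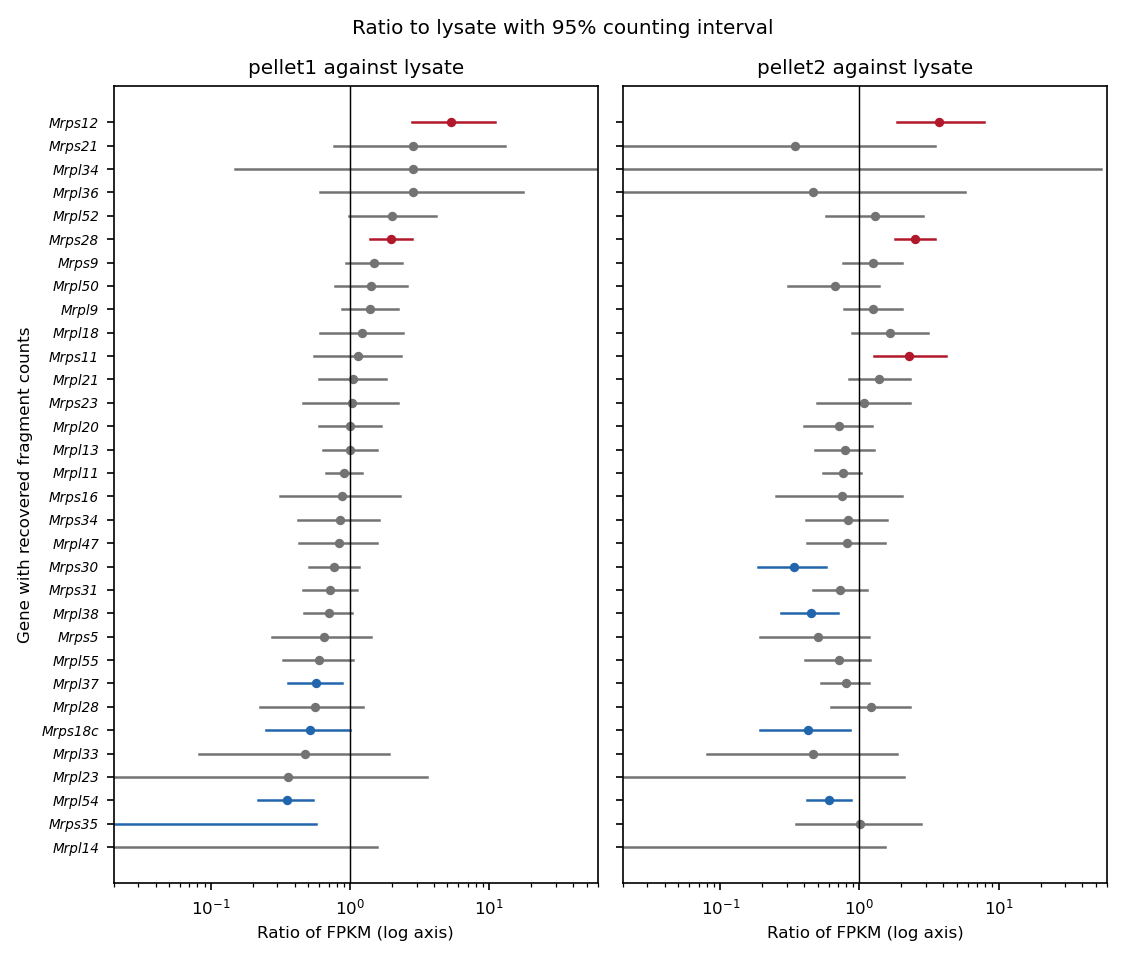
Ratio of FPKM to lysate (horizontal log axis) for members with recovered fragment counts, pellet1 at left and pellet2 at right; points are ratios and lines exact 95% counting intervals, cut at the edges of the axis, with no point where the pellet had 0 fragments. Red intervals lie above 1 and blue below it; Mrps12 is at 5.32 in pellet1 and 3.70 in pellet2, and most other intervals, in grey, include 1.

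The 3 genes of the Mrps18 family had different profiles. Mrps18b was at 49.7 FPKM in lysate and 48.8 in supernatant, at 143 in pellet1 and 82.8 in pellet2, and at 176 in MVH IP. Mrps18c was at 36.4, 24.5, 18.7, 15.4 and 36.1 FPKM, low in both pellets. Mrps18a was at 11.5, 13.1, 8.48, 10.2 and 21.6 FPKM. In the authors' deposited table Mrps18b had q = 0.193 for pellet1 against lysate and q = 0.131 for MVH IP against lysate.

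MVH IP against pellet2, the material the antibody was given, had 34 members higher and 1 lower of 72, beside 39.9% and 5.78% of all genes. The median log2 ratio was 0.90 in members and 0.79 in all genes, and after centring 10 members were higher and 9 lower, beside 14.2% and 13.7%. Mrpl40 was at 2.97 FPKM in pellet2 and 26.6 in MVH IP, Mrpl33 at 4.78 and 32.3, Mrps34 at 9.70 and 53.0, and Mrpl50 at 2.67 and 16.4. Mrpl36 and Mrps33, also among the largest increases, were under 1 FPKM in pellet2. Mrps21, listed at 0 in MVH IP, was the member counted lower. Mrps11, 1 of the 3 members higher in pellet2 than in lysate, was at 16.6 FPKM in pellet2 and 12.0 in MVH IP, but the separate MVH IP table lists it at 22.8.

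**Figure D4:**
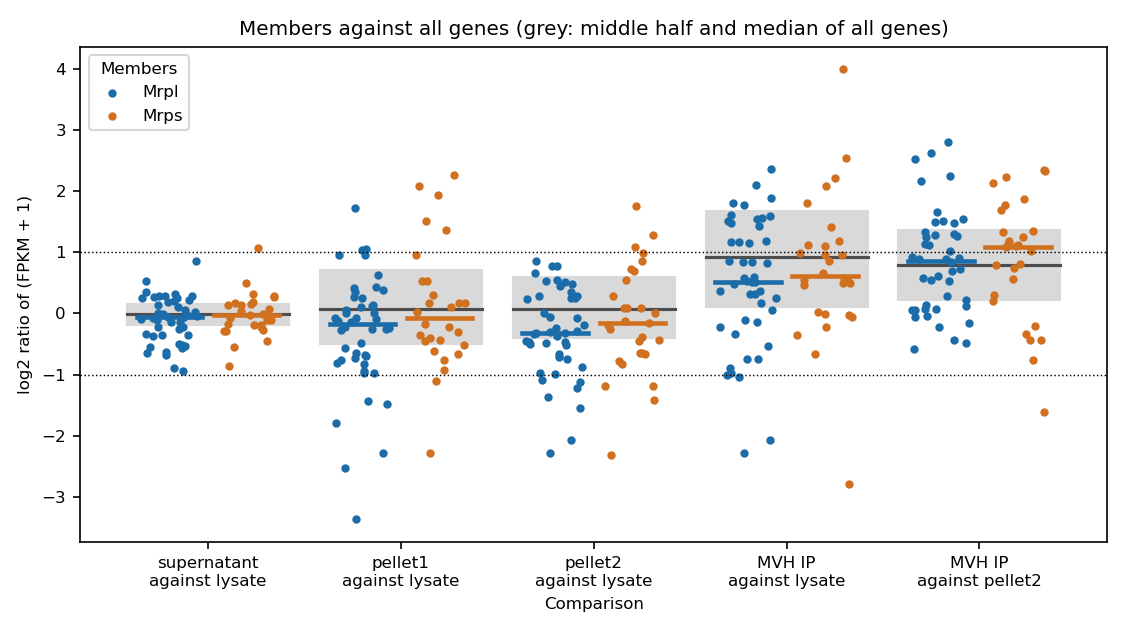
Log2 ratio of (FPKM + 1) of each member (blue Mrpl, orange Mrps; short lines are their medians) in 5 comparisons of the joint table, over grey boxes of the interquartile range of all genes with their median line; dotted lines mark 2-fold. Members centre near 0 in supernatant and below the gene median in both pellets and in MVH IP against lysate (0.57 against 0.92), and Mrps12 stands alone at 3.98.

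The authors' deposited table compared the 5 conditions in 10 pairs. At q under 0.05 it called Mrps12 against lysate and Mrps12 (q = 0.0138) and Mrpl22 (q = 0.0310) against supernatant, both higher in MVH IP, where 9.16% of genes were called higher and 0.117% lower. In the other 8 pairs the Cuffdiff calls of the authors' deposited table included 0 members, where from 0.00947% to 3.07% of genes were called; at an unadjusted p under 0.05 those pairs had from 0 to 4 members. In the authors' deposited table Mrpl49 failed Cuffdiff's test in each pair with MVH IP.

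Sorted round spermatids were read from a separate table that lists only genes from about 5 FPKM upward. It lists 37 of the 76 members; 35 were listed for lysate, 56 for MVH IP and 26 for hetMIWI in tables of the same kind, against 22.4%, 24.0%, 36.3% and 14.5% of all genes; 16 members were in all 4 tables and 12 in none. Of 30 members in both, 6 were higher and 2 lower in round spermatids than in lysate by 2-fold or more, beside 22.6% and 3.61% of genes, with a median log2 ratio of 0.26 in members and 0.31 in genes. Centred, 2 were higher and 2 lower, beside 15.2% and 8.04%. Mrps14, a small subunit gene, had 52.0 FPKM in the sorted cells and 9.89 in lysate, whereas Mrpl11, a large subunit gene, had 22.2 and 5.57. Mrps28 was lower at 5.25 and 12.4 FPKM, and Mrpl24 at 10.9 and 23.5. These tables were scaled apart. With the joint lysate values, which allow 37 members, the medians moved to -0.69 in members and -0.70 in all genes. On those values 1 member was higher and 13 lower, and the shares of all genes are not given here.

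MVH IP against round spermatids had 18 of 30 members higher and 0 lower, beside 75.4% and 0.545% of genes, and medians of 1.40 and 1.85. Centred, 7 were higher and 11 lower, beside 20.3% and 21.5%. Mrps12 was at 277 FPKM in the IP and 10.8 in the cells, and Mrpl22 at 277 and 14.9. Mrpl52, without a bacterial counterpart, was at 87.8 and 7.24 FPKM, and Mrps36 at 144 and 13.7. At the other end Mrpl54 was at 20.1 and 22.2 FPKM and Mrpl32 at 17.8 and 18.0.

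In hetMIWI round spermatids 3 of 22 members were higher and 0 lower than in the other round spermatids, beside 12.7% and 10.5% of genes, and the medians were 0.82 and 0.43. Centred, 0 were higher and 1 lower, beside 3.59% and 18.3%. Mrpl16 was at 35.2 FPKM and 12.7, Mrpl24 at 29.3 and 10.9, and Mrps18a at 21.5 and 9.72. Mrps12 was at 8.82 and 10.8 FPKM. Piwil1 itself was listed at 7.79 FPKM in hetMIWI cells and 5.01 in the other round spermatids. Cytosolic ribosomal protein genes, picked by symbol, had 27 of 36 higher in this comparison, with a median of 1.80. Nuclear respiratory chain genes, picked likewise, had 11 of 28 higher, with a median of 0.93.

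Lysate and MVH IP appear in both the joint and the separate tables. In lysate the median ratio of separate to joint values was 0.402 in members and 0.409 in all genes. In MVH IP it was 1.06 and 1.15. For lysate, of 35 members in both, 1 departed by 2-fold or more from the members' median shift, beside 2.71% of all genes. For MVH IP 17 of 55 did, beside 31.9%. Mrps12 was at 135 FPKM in the joint table and 277 in the separate one, and Mrpl22 at 130.1 and 277. Mrps34 was at 53.0 and 13.1 FPKM and Mrps18c at 36.1 and 9.60. Of 50 members at 10 FPKM or more in MVH IP of the joint table, 7 (14.0%) are not in the separate one, beside 27.9% of all genes at that level. Mrpl53, at 86.5 FPKM, is among the 7.

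**Figure D5:**
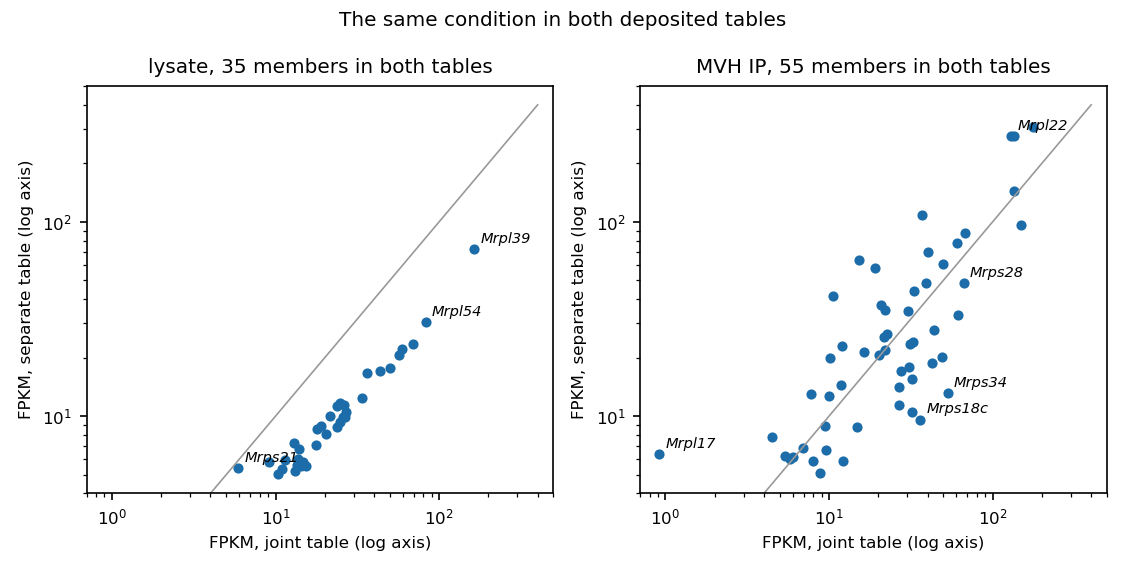
FPKM of members in the joint (horizontal) and separate (vertical) tables, both log axes, for lysate at left and MVH IP at right; the grey line marks equal values. Lysate points run along 1 band below the line, with Mrpl39 at 164 and 72.2, while MVH IP points scatter to both sides.

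Some members share their locus with another gene. The loci of 9 overlap a second gene, so that reads could not be told apart where strand was not used: Mrpl19 with AW146020, Mrpl24 with BC023814, Mrpl41 with Wdr85, Mrpl48 with Rab6, Mrpl49 with Syvn1, Mrpl53 with Ccdc142, Mrps25 with Nr2c2, Mrps27 with 6430562O15Rik, and Mrps6 with Slc5a3. The sources used here do not say whether it was. Mrpl24 and BC023814 ran opposite ways, at 68.9 and 3.90 FPKM in lysate and 33.8 and 33.5 in MVH IP. The members' transcripts are short, with a median longest transcript of 1302 bases against 2848 in all genes (annotation of GENCODE vM21), and 3 are under 500 bases. Across members in MVH IP against lysate, the rank correlation with length was -0.20 (n = 74 genes of the same libraries), and -0.09 over all genes. In MVH IP against round spermatids it was -0.43 (n = 30) in members and -0.02 over all genes, and in round spermatids against lysate 0.34 (n = 30) and 0.18. In hetMIWI against other round spermatids it was -0.06 (n = 22) in members and -0.31 over all genes. The round spermatid values include the library of RNA above 500 bp. Among the 6 largest increases in MVH IP over these cells, Mrpl52, Mrps36 and Mrpl22 have longest transcripts of 463, 701 and 722 bases. Mrps28, Mrps12 and Mrpl10 have 783, 883 and 1708. Among the 6 lowest ratios, Mrpl54, the lowest, has 604 bases, and Mrpl37 and Mrps31 have 1498 and 1515. Mrpl32, Mrps30 and Mrpl17 have 3013, 3319 and 7300. The part of length in these values was not tested.

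Other genes of mitochondrial translation were read from lists of their own. Of 7 further mitoribosomal proteins with other names, 1 was higher and 2 lower in MVH IP than in lysate: Chchd1 at 55.7 and 169.6 FPKM, Mrp63 at 7.62 and 1.58, and Ict1 at 2.29 and listed at 0. Of 13 translation factors 4 were higher and 0 lower, among them the recycling factor gene Mrrf at 8.73 and 34.2 FPKM and the initiation factor gene Mtif3 at 11.8 and 36.6. Of 16 mitochondrial tRNA synthetase genes 8 were higher and 1 lower, and of 16 assembly factor genes likewise 8 and 1, shares close to the 47.3% and 7.53% of all genes. Centred, the synthetase genes had 2 higher and 4 lower and the assembly factor genes 5 and 4. Tufm, the elongation factor that brings tRNA to the ribosome, was at 19.4 FPKM in lysate and 26.1 in MVH IP.

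Cytosolic ribosomal protein genes and nuclear respiratory chain genes are the groups most like the members. Both were picked by symbol, so genes such as Rps19bp1 and Cox4nb are counted in them, and some may encode proteins of other function. In pellet1 32 of 73 measured cytosolic genes and 22 of 81 respiratory chain genes were lower than in lysate, against 8 of 74 members (10.8%) and 9.41% of all genes. In pellet2 the numbers were 22 of 73 and 24 of 81, against 11 of 74 members (14.9%) and 7.21% of all genes. In MVH IP against lysate the medians were 0.15 for cytosolic, 0.60 for respiratory chain and 0.57 for member genes. These are descriptions of single libraries or merged values, and the differences between the groups were not tested.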

How the data were processed

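RNA-seq values were used as deposited in FPKM, per the file headers for the separate tables; in the joint Cuffdiff table the FPKM unit of the authors' values was inferred from those values and from the tables' overlap. Cuffdiff p-values and q-values were taken from the authors' deposited table as they stand there. TopHat, Cuffdiff and mm9 are named in the submitters' processing notes; their versions, the filters and the scaling are not given in the sources used. A column of small RNA values (1 in number) belongs to other libraries and was not used. Loci start at 0 in the table and were shifted to count from 1.

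Log2 ratios of (FPKM + 1) were taken for genes with a mean of at least 1 FPKM, and 2-fold was counted as higher or lower. Fragment counts up to 300 were searched (up to 10 where only 2 conditions were positive). Named members were the 6 largest increases and decreases per comparison, members at 0, members called by the authors, the 5 highest and 5 lowest in lysate, overlapping loci and the Mrps18 family; others were named after their values were seen. The members and lists were chosen with earlier results of these data known. Scripts (Python 3.11.15, numpy 2.4.6, pandas 2.3.3, scipy 1.17.1) were tested on simulated data. Alternatives were the pseudocount, the filter, the threshold, centring, the other table and members at 0 or overlapping left out. The planned design held no test.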

Additional observations from a re-analysis of the deposited data

How the results depend on the processing

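No paired analysis was possible because each condition has 1 merged or single value per gene. For the same reason no replicate could be left out. Under the alternatives, 53 counts of members higher and 44 of members lower stayed within 1.5 times the reported count, and 14 and 23 did not. Counts were compared as they stand, also where fewer members were tested. In MVH IP against lysate, members lower numbered 2 with a mean of at least 5 FPKM and 2 with members at 0 left out. They numbered 10 at a 1.5-fold threshold and 0 in the separate tables, while centring gave 6 higher and 17 lower. Members higher numbered 20 of 29 in the separate tables, which list only genes from about 5 FPKM upward and were scaled apart. In the joint table they numbered 25 of 74. The share of all genes higher in the separate tables is not given here. The median log2 ratios in the separate tables were 1.54 in members and 2.03 in all genes. In supernatant against lysate there were 2 higher and 1 lower with a pseudocount of 0.1, 0 higher with a mean of at least 5, and 2 higher and 6 lower at 1.5-fold. In pellet1, 4 were lower with a mean of at least 5, 5 with members at 0 left out and 22 at 1.5-fold. In pellet2, 5 were higher with the smaller pseudocount, 7 lower with a mean of at least 5, and 11 higher and 22 lower at 1.5-fold. In MVH IP against pellet2, 2 were lower without a filter, 0 with a mean of at least 5, 0 with members at 0 left out and 2 at 1.5-fold, and centring gave 10 higher and 9 lower. In round spermatids against lysate, 2 were higher after centring, 10 at 1.5-fold, and 1 higher and 13 lower with the joint lysate; 1 was lower among members overlapping no other gene, an alternative chosen after seeing the data. In MVH IP against round spermatids, centring gave 7 higher and 11 lower, and 2 were lower with the joint MVH IP. In hetMIWI against other round spermatids, 6 were higher with the smaller pseudocount and 13 at 1.5-fold, 0 higher and 1 lower after centring, and 1 lower at 1.5-fold. The cause was not tested. Low fragment numbers limit single members, and the depth of MVH IP, round spermatid and hetMIWI values is unknown.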

Other observations

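Mrps12 lies head to head with Sars2, the gene of the mitochondrial seryl-tRNA synthetase, and their RefSeq promoter windows overlap. Sars2 was at 1.93 FPKM in lysate and 1.02 in supernatant, at 8.07 in pellet1 and 5.85 in pellet2, and at 22.9 in MVH IP, the same order of conditions as Mrps12. Mrps7 and Mrpl22, which are not neighbours of Mrps12, had that order as well. These members were named for their increase in MVH IP, which was also the highest condition for 67.2% of all genes. Lysate and supernatant were hardly apart: Mrps12 had 12 recovered fragments in each, a ratio of 0.692 (0.284 to 1.68). Mrps7 was at 5.88 and 5.82 FPKM. The share of all genes with this order was not counted. Mrpl46 and Mrps11 also lie head to head, with 41 bases between their loci (mm9). Mrpl46 was at 10.3, 12.5, 36.2, 18.4 and 31.2 FPKM in lysate, supernatant, pellet1, pellet2 and MVH IP. Mrps11 was at 7.24, 5.76, 8.22, 16.6 and 12.0, so this pair did not share an order of conditions.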
